A study of Mus musculus with 12 samples.

Results

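The genes described here encode 10 ion channels and channel subunits that are gated by membrane stretch or have been linked to mechanosensing: Piezo1, Piezo2, Trpv2, Trpv4, Trpm7, Tmem63a, Tmem63b, Kcnk2, Pkd1 and Pkd2. They were chosen by name and matched by symbol through the GENCODE M21 annotation of the mouse genome (GRCm38), and 10 of 10 were found among the 54232 gene identifiers in each library. All 10 also passed the filter on low counts that left 18618 genes for testing. RNA had been sequenced from 12 wounds on the backs of male C57BLKS/J mice with the genotype Lepr (db/db), 12.5 weeks of age in the labels. This mutation of the leptin receptor gene produces obesity and type 2 diabetes, and every group carried it, so no wound of a non-diabetic mouse was part of the comparison. Each wound was a full-thickness punch of 6 mm, sampled on day 10. The 5 TD wounds were covered with Tegaderm film alone, the 4 Strain wounds were dressed with a patch built for a stretch of about 30%, and the 3 No Strain wounds with a patch that did not stretch them.

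The labels do not say whether several wounds came from 1 mouse, so the p-values measure the spread between these 12 samples. Libraries are named by group and by a number in accession order, which pairs nothing between groups. The sample titles number the TD wounds 1 to 6 and the patch wounds 7 to 15, so any order behind those numbers and the presence of a patch cannot be told apart. The titles also hold the letter L or R, unexplained in the labels and uneven: 1 L and 4 R in TD, 3 L and 1 R in Strain, and 2 L and 1 R in No Strain. With this letter as a covariate, calls over all genes in Strain against TD went from 2349 to 798. Total counts ranged from 20354677 to 25059371 per library. Levels are given as CPM, read counts put on 1 common scale by TMM-adjusted library totals, and differences as log2 fold changes from the edgeR quasi-likelihood test with its standard error (SE). Adjusted p means Benjamini-Hochberg adjustment across the 18618 genes, and a gene passed when it was under 0.05. In whole wounds, fewer cells of a type and less RNA per cell cannot be told apart.

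Mechanosensitive channels turn force on the membrane into ion flow. Piezo, TRP and polycystin channels pass cations including calcium, which activates calcineurin and calpains, whereas the potassium channel encoded by Kcnk2 lowers excitability when stretched. In skin, such channels are known for touch sensing, for the response of endothelium and keratinocytes to force, and for effects on fibroblast activation and wound closure. A patch that stretches a wound is therefore a setting in which the level of their transcripts can be asked about, although transcript levels say nothing about how often a channel opens.

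Imposed strain itself was addressed by comparing Strain with No Strain, both of which wore a patch. Several cell type marker lists also leaned apart in this comparison, as given below. No channel gene passed there: 0 of 10 had an adjusted p under 0.05 in edgeR, as for 0% of all genes tested, and 0 of 10 had an unadjusted p under 0.05, against 5.61% of all genes. DESeq2 called 0 of the 10 as well, and 33 of all genes. The values of Strain and No Strain did not overlap for 1 of the 10 genes, Tmem63a, as for 5.62% of all genes. The log2 fold changes of the 10 lay between -0.26 for Kcnk2 and 0.13 for Trpm7. How large a difference could have been missed varied by gene. The 95% interval ran from -0.04 to 0.22 for Tmem63a, the narrowest of the 10, and from -0.99 to 0.47 for Kcnk2, the widest.

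The contrasts with TD address the patch together with whatever else set those wounds apart. In Strain against TD, 2 of 10 genes passed, Kcnk2 and Pkd1, both lower, where 12.6% of all genes passed and 6.41% were lower. In No Strain against TD, 2 of 10 passed, Tmem63a and Pkd1, both lower, where 17.8% of all genes passed and 8.40% were lower. When both patch groups were averaged and set against TD, 5 of 10 passed, where 24.4% of all genes did. Kcnk2, Pkd1, Tmem63a and Tmem63b were lower, as were 12.1% of all genes, and Trpv2 was higher, as were 12.4%. The libraries did not overlap for 2 of 10 genes in Strain against TD (14.6% of all genes), for 5 of 10 in No Strain against TD (26.7%) and for 2 of 10 when the 7 patch wounds were pooled (11.0%). The median log2 fold change of the 10 genes was -0.16, -0.14 and -0.17 in these contrasts, beside 0.02, 0.01 and 0.01 over all genes tested. These contrasts share the TD libraries, so they are not separate evidence, and the share of channel genes that passed in each single patch contrast was near that of all genes.

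**Figure D1:**
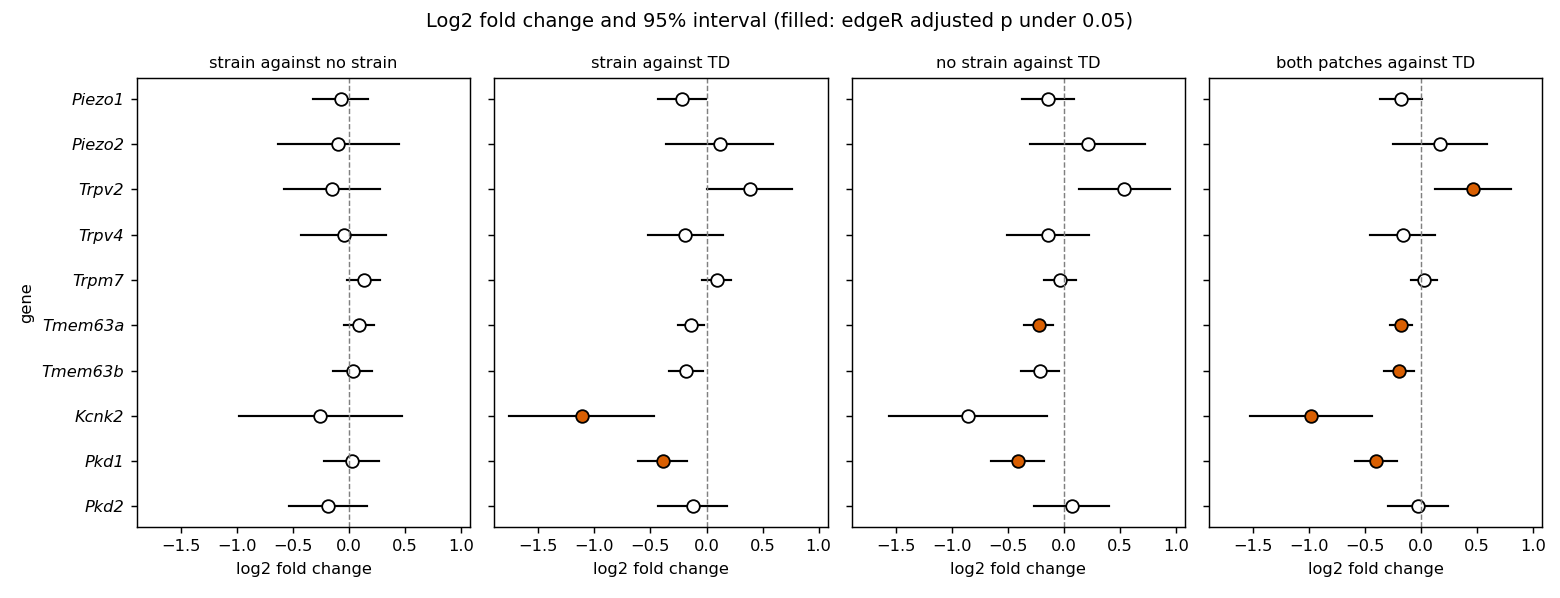
Log2 fold change (x axis) of the 10 channel genes (y axis) in the 4 comparisons, with 95% intervals; filled circles mark an edgeR adjusted p under 0.05. No circle is filled for Strain against No Strain, and Kcnk2 and Pkd1 lie left of 0 in all the comparisons with TD.

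The channels were not equally abundant. Exon length here is the union of all annotated exons of a gene, whichever transcripts the wounds held. It was 17162 bases for Piezo2 and 4943 for Kcnk2, so the order of genes with close values depends on this choice of length. Compared per kilobase of exons, the mean over 12 libraries was 15.95 ± 2.41 CPM per kb (SD, n = 12) for Pkd2, 15.1 ± 1.21 for Tmem63a, 14.8 ± 1.76 for Piezo1 and 12.6 ± 1.19 for Tmem63b. A middle tier held Trpv2 (8.92 ± 2.06), Pkd1 (8.73 ± 1.5), Trpm7 (7.88 ± 0.497) and Trpv4 (6.42 ± 1.08), and Kcnk2 (1.25 ± 0.536) and Piezo2 (0.957 ± 0.22) were lowest. The top and bottom genes differed 16.7-fold. Neighbours in this order overlapped over the libraries, except that Trpv4 exceeded Kcnk2 in 12 of 12 libraries, by 5.14-fold on average. Every library of Kcnk2 and Piezo2 lay below those of the rest. Among the other 8 genes, 14 of 28 pairs did not overlap: Pkd2, Tmem63a and Piezo1 lay above Trpv2, Pkd1, Trpm7 and Trpv4 in all libraries, and Tmem63b above Trpm7 and Trpv4.

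**Figure D2:**
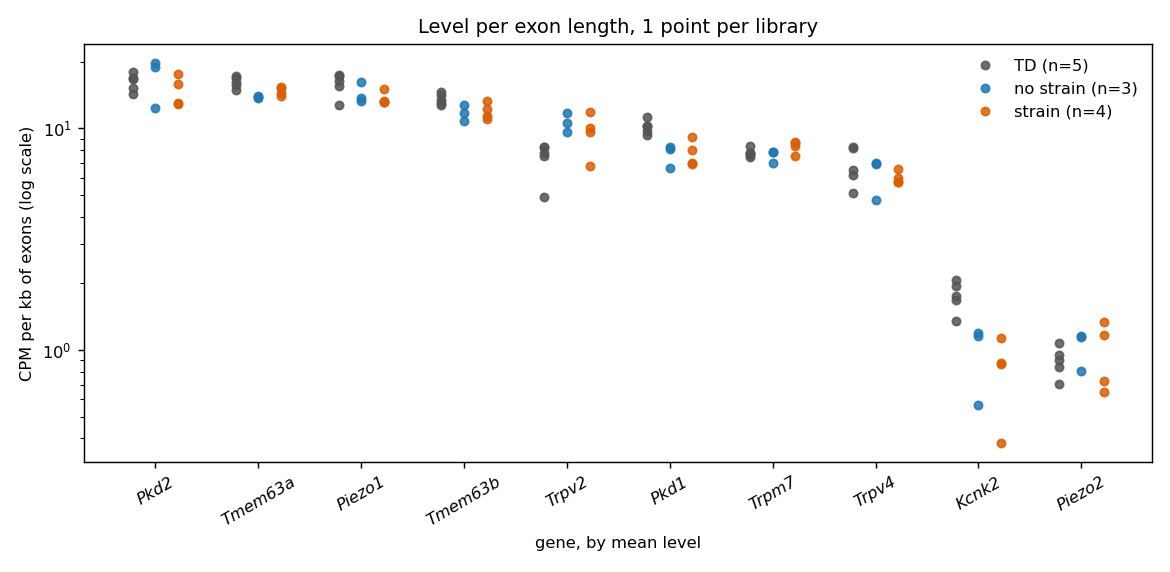
Level per kilobase of exons (y axis, CPM per kb, log scale) for each channel gene (x axis, ordered by mean), 1 point per library, coloured by group. Kcnk2 and Piezo2 lie below the other 8 genes in every library.

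Piezo1 encodes a large stretch-gated cation channel found in endothelium, keratinocytes, fibroblasts and red cells (ENSMUSG00000014444, chromosome 8, 122481698 to 122551329, minus strand). Its level was 126, 172, 154.5, 162 and 173 CPM in TD 1 to 5. In Strain 1 to 4 it was 130.3, 130.2, 132 and 149.7 CPM. In No Strain 1 to 3 it was 131, 136 and 160.5 CPM. TD 1 held the lowest value of all 12 libraries and the other 4 TD wounds lay above all 4 Strain wounds and 2 of the 3 No Strain wounds, so the groups overlapped. The differences did not pass: -0.22 (SE 0.0988, edgeR adjusted p = 0.167) for Strain against TD, -0.14 (SE 0.108, edgeR adjusted p = 0.386) for No Strain against TD and -0.07 (SE 0.112, edgeR adjusted p = 0.966) for Strain against No Strain. Both patch groups against TD gave -0.18 (SE 0.0861, edgeR adjusted p = 0.148) and did not pass either. Without TD 1 the Strain difference was -0.29 (edgeR adjusted p = 0.048) and that of both patch groups -0.25 (edgeR adjusted p = 0.0313). Each then passed, so that library decides these calls. Piezo1 shares 2441 of its 9935 exonic bases with Ctu2 on the opposite strand; the library kit does not mark strand, and Ctu2 had 14.3 to 19.6 CPM.

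Piezo2 encodes the low-threshold touch channel of Merkel cells and sensory neurons (ENSMUSG00000041482, chromosome 18, 63010213 to 63387183, minus strand). In TD 1 to 5 it was measured at 15.5, 16.3, 12.1, 18.5 and 14.5 CPM. Strain 1 to 4 had 20.1, 12.5, 11.2 and 23.0 CPM, and No Strain 1 to 3 had 13.8, 19.6 and 19.98 CPM. The Strain wounds thus spanned the whole range of the other groups, with the lowest and the highest value of the 12. No comparison passed, with differences of 0.12 (SE 0.217, edgeR adjusted p = 0.764) for Strain and 0.21 (SE 0.235, edgeR adjusted p = 0.567) for No Strain against TD. Merkel cell markers were scarce, summing to 6.40 to 10.6 CPM in TD, 3.74 to 5.02 in Strain and 7.72 to 12.2 in No Strain. Of 5 tested, 1 fell in Strain against TD, and 1 rose and 1 fell in No Strain against TD, by edgeR. The defining Merkel gene Atoh1 was at 0 in 11 of 12 libraries. Schwann cell markers, a sign of nerve, summed to 268 to 439 CPM in TD, 216 to 311 in Strain and 210.1 to 275 in No Strain. The part of either list in the Piezo2 values was not tested.

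Trpv2 encodes a cation channel of the vanilloid TRP family that is abundant in macrophages and other immune cells (ENSMUSG00000018507, chromosome 11, 62574486 to 62600515, plus strand). It was the only one of the 10 channel genes called higher under a patch. TD 1 to 5 had 22.01, 34.8, 37.0, 33.8 and 36.9 CPM, Strain 1 to 4 had 30.5, 53.1, 45.0 and 43.3 CPM, and No Strain 1 to 3 had 47.5, 43.0 and 52.8 CPM. Strain 1 fell inside the TD range and the other 6 patch wounds lay above every TD wound. The mean of both patch groups exceeded TD by 0.46 (SE 0.153, edgeR adjusted p = 0.0474), a rise of 37.8%. Taken singly, neither contrast passed: 0.39 (SE 0.173, edgeR adjusted p = 0.161) for Strain and 0.54 (SE 0.186, edgeR adjusted p = 0.0665) for No Strain. The No Strain difference passed in DESeq2 (adjusted p = 0.0402) and without Strain 1 (edgeR adjusted p = 0.0374). The joint call was marginal. It was lost in 15 of 18 alternative analyses, including the omission of any single library other than Strain 1, with edgeR adjusted p up to 0.0951 over the omissions.

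Neutrophil markers moved with the patches, at 417 to 1609 CPM summed over 8 markers in TD, 812 to 8558 in Strain and 1881 to 5104 in No Strain, with Ly6g at 0 in 1 library. Of these 8 markers, 7 rose and 0 fell in the patch groups together, by edgeR. Macrophage markers summed to 1181 to 2758 CPM in TD, 1973 to 2679 in Strain and 1894 to 2955 in No Strain, and no marker passed in edgeR. Unadjusted p was under 0.05 for 0, 0, 4 and 3 of 8 in Strain against No Strain, Strain against TD, No Strain against TD and both patch groups against TD. DESeq2 called 0, 0, 1 and 2, the 1 in No Strain lower and the 2 in both patch groups 1 higher and 1 lower. In each contrast with TD, 6 of 8 markers had a positive and 2 a negative log2 fold change. TD 1, the library with the least Trpv2, also had the least macrophage signal. TD 2 and TD 5 had a higher macrophage sum (2758 and 2701 CPM) than No Strain 2 and Strain 4 (1894 and 1973 CPM), and less Trpv2. This sum mixes markers that differed in direction. Cd163 and Mrc1 averaged 181.9 and 298.5 CPM in TD and 57.19 and 245.6 in No Strain. Cd68 and C1qb averaged 198.9 and 293.3 CPM in TD and 308.7 and 461.4 in No Strain. Strain 1, the patch wound with the least Trpv2, had the highest neutrophil sum, 8558 CPM. That sum is carried mostly by S100a8 and S100a9, which reached 3634 and 4761 CPM in Strain. Cxcr2 and Retnlg were at most 30.7 and 9.695 CPM in Strain and at least 32.13 and 10.55 CPM in No Strain. Of the 8 markers, 2 had a positive and 6 a negative log2 fold change in Strain against No Strain, so the sum does not rank wounds by each marker. The part of these cells in the Trpv2 difference was not tested.

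The stretch before the first of the 3 annotated Trpv2 starts is shown because Trpv2 was called in the other direction from the rest. It comes from the RefSeq promoter table (GRCm38.p6, chr11:62574236-62574485, plus strand, 5′ to 3′), which covers 9 of the 10 genes, and all windows shown here stop short of annotated exons. Motifs were searched on both strands by their letters: GGGCGG (GC box), GAGGAAGT (the PU.1 form of an ETS site), TGANTCA (AP-1), GGAATG (TEAD), CACGTG (an E-box) and the CArG box. Capitals mark the PU.1 match, which begins 14 bases before the start and whose letters occur in 2.44% of 27025 gene promoters over the same length. PU.1 is the ETS factor of myeloid cells, and a match of letters is not a measured site. None of the other 5 motifs was in this window, and the motifs were chosen after the values were seen.
Trpv2: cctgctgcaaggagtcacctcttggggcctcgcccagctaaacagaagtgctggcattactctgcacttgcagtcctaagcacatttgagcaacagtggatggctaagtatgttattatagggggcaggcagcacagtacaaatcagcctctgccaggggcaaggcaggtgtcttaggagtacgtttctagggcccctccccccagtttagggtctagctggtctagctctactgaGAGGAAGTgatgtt

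**Figure D3:**
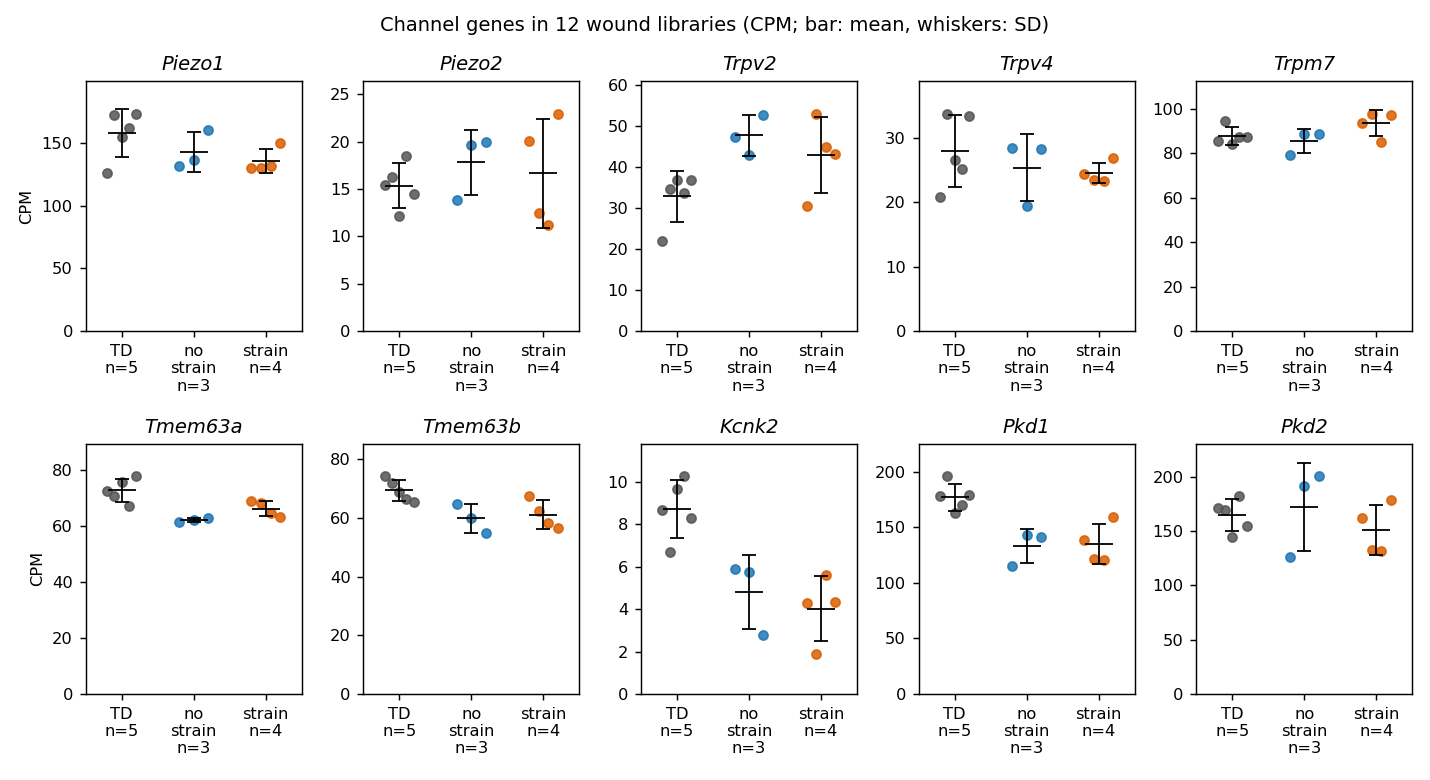
CPM (y axis, from 0) of the 10 channel genes in TD, No Strain and Strain wounds (x axis), 1 point per library with the group mean and SD. Kcnk2 and Pkd1 show no overlap between TD and either patch group, and Trpv2 overlaps with TD only through Strain 1.

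Trpv4 encodes an osmotically and mechanically sensitive cation channel of keratinocytes, endothelium and cartilage (ENSMUSG00000014158, chromosome 5, 114622152 to 114658421, minus strand). Its level was 20.9, 33.7, 26.6, 25.2 and 33.4 CPM in TD 1 to 5. Strain 1 to 4 had 24.4, 23.4, 23.4 and 26.8 CPM, and No Strain 1 to 3 had 28.4, 19.4 and 28.2 CPM. The Strain wounds were tightly grouped inside the wider TD range. The differences from TD were -0.19 (SE 0.153, edgeR adjusted p = 0.441) for Strain and -0.14 (SE 0.167, edgeR adjusted p = 0.597) for No Strain, and neither passed.

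Trpm7 encodes a channel fused to a protein kinase that carries magnesium, zinc and calcium (ENSMUSG00000027365, chromosome 2, 126791565 to 126876230, minus strand). It was the steadiest of the 10, at 85.8, 94.5, 84.1, 87.2 and 87.5 CPM in TD 1 to 5. Strain 1 to 4 had 93.9, 97.9, 85.3 and 97.2 CPM, and No Strain 1 to 3 had 79.3, 88.9 and 88.6 CPM. The highest library was 1.23 times the lowest. No comparison passed: Strain lay 0.13 (SE 0.0686, 95% interval -0.02 to 0.28, edgeR adjusted p = 0.873) above No Strain and 0.09 (SE 0.0601, edgeR adjusted p = 0.341) above TD.

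Tmem63a and Tmem63b belong to the TMEM63 family, the animal relatives of the plant OSCA channels, which open on membrane stretch and osmotic change. Tmem63a (ENSMUSG00000026519, chromosome 1, 180942344 to 180975112, plus strand) had 72.6, 70.7, 75.8, 67.1 and 77.8 CPM in TD 1 to 5. Strain 1 to 4 had 69.0, 68.2, 64.6 and 63.1 CPM, and No Strain 1 to 3 had 61.6, 62.1 and 63.0 CPM. The No Strain wounds lay below every TD and every Strain wound, and Strain overlapped TD through Strain 1 and 2. Tmem63a fell by 14.5% in No Strain against TD (log2 fold change -0.23, SE 0.0585, edgeR adjusted p = 0.0235). Omitting No Strain 1, 2 or 3 ended that call (edgeR adjusted p = 0.0751, 0.0552 and 0.0644), as did testing without a filter on low counts (0.0629). The Strain difference was -0.14 (SE 0.0534) and missed the threshold (edgeR adjusted p = 0.113). The mean of both patch groups lay 0.18 below TD (log2 fold change -0.18, SE 0.0466, edgeR adjusted p = 0.0169), and this call held without any single library (edgeR adjusted p from 0.0118 to 0.0443).

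The part of the Tmem63a promoter window that lies outside annotated exons is short (chr1:180942268-180942343, plus strand) and is shown as that of a channel that fell. Capitals mark a GC box read on the opposite strand, beginning 229 bases before the RefSeq start. The 174 bases next to that start lie in annotated exons and are left out, so it lies downstream of the gene start given above. The letters of the GC box occur in 7.58% of promoters over the same length and placement. The other 5 motifs were not in it.
Tmem63a: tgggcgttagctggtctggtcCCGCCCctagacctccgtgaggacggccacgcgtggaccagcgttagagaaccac

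Tmem63b (ENSMUSG00000036026, chromosome 17, 45660171 to 45686905, minus strand) had 74.1, 72.0, 68.8, 66.5 and 65.2 CPM in TD 1 to 5. Strain 1 to 4 had 67.5, 62.2, 58.2 and 56.5 CPM, and No Strain 1 to 3 had 64.8, 59.9 and 54.8 CPM. Only Strain 1 reached the TD range. Neither single contrast passed, at -0.18 (SE 0.0699, edgeR adjusted p = 0.107) for Strain and -0.21 (SE 0.0764, edgeR adjusted p = 0.0754) for No Strain. The No Strain difference passed in DESeq2 (adjusted p = 0.0399) and with library totals alone (edgeR adjusted p = 0.0318). The mean of both patch groups lay at -0.20 (SE 0.0609, edgeR adjusted p = 0.0361) and passed. That call was lost without TD 1, TD 2, TD 3, No Strain 3 or Strain 4 (edgeR adjusted p = 0.0849, 0.0695, 0.0639, 0.0789 and 0.0553), with no filter (0.0582) and with the title letter as a covariate (0.08). Tmem63b shares 394 exonic bases with Mrpl14 and Gm16172 on the opposite strand, and Mrpl14 had 19.0 to 25.04 CPM.

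Kcnk2 encodes TREK-1, a K2P background potassium channel that opens on stretch, warmth and lipids (ENSMUSG00000037624, chromosome 1, 189207930 to 189402273, minus strand). It differed most from TD among the 10. TD 1 to 5 had 8.68, 6.70, 9.65, 10.3 and 8.29 CPM, Strain 1 to 4 had 4.27, 1.89, 5.61 and 4.31 CPM, and No Strain 1 to 3 had 5.90, 5.75 and 2.79 CPM. Every patch wound lay below every TD wound, and Strain and No Strain overlapped. The values rest on 42 to 254 counts per library. Kcnk2 fell by 53.7% in Strain against TD (log2 fold change -1.11, SE 0.295, 95% interval -1.76 to -0.47, edgeR adjusted p = 0.0327) and by 49.4% for both patch groups together (log2 fold change -0.98, SE 0.250, edgeR adjusted p = 0.0163). In No Strain alone the difference of -0.85 (SE 0.321) did not pass (edgeR adjusted p = 0.0869). It did in DESeq2 (adjusted p = 0.0379), with only the groups compared (edgeR adjusted p = 0.0467) and without Strain 2 (edgeR adjusted p = 0.0333). The Strain call was lost without TD 1, TD 3, TD 4, Strain 1, Strain 2 or Strain 4, with edgeR adjusted p from 0.0561 to 0.0702, whereas the call for both patch groups held without any single library (edgeR adjusted p from 0.0101 to 0.0416). With the title letter as a covariate neither passed (edgeR adjusted p = 0.103 and 0.0648), and with no filter on low counts the Strain call missed narrowly (edgeR adjusted p = 0.0502).

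The window before the first of 4 annotated Kcnk2 starts (chr1:189402274-189402523, minus strand) is shown as that of the channel with the largest difference. Its GC content was 42.4%, where the median promoter had 52% over the same length. Capitals mark a match to the TEAD motif on the opposite strand, 89 bases before the start; TEAD factors act with YAP and TAZ, which respond to tissue stiffness. These letters occur in 12.6% of promoters of that length, and the other 5 motifs were not in it.
Kcnk2: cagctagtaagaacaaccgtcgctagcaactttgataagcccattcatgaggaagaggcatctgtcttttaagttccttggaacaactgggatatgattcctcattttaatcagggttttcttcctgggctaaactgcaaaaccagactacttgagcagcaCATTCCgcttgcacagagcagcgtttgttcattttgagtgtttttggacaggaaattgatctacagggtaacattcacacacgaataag

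Pkd1 and Pkd2 encode polycystin-1 and polycystin-2, a receptor-like membrane protein and the TRP-type cation channel with which it pairs, known from the primary cilium and from polycystic kidney disease. Pkd1 (ENSMUSG00000032855, chromosome 17, 24549834 to 24596508, plus strand) had 178, 196, 163, 170.3 and 179 CPM in TD 1 to 5. Strain 1 to 4 had 139, 121.5, 120.3 and 159 CPM, and No Strain 1 to 3 had 115, 143 and 141 CPM. All 7 patch wounds lay below all 5 TD wounds, with Strain 4 the nearest. Pkd1 fell by 23.8% in Strain (log2 fold change -0.39, SE 0.0988, edgeR adjusted p = 0.0274) and by 24.9% in No Strain (log2 fold change -0.41, SE 0.108, edgeR adjusted p = 0.0246), and Strain and No Strain differed by 0.02 (SE 0.112, 95% interval -0.22 to 0.27).

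In the edgeR fit of all 12 libraries, Pkd1 was the only one of the 10 genes that passed in both single patch contrasts, which share the TD wounds. Kcnk2 also passed in both in DESeq2 and when only the groups compared were fitted. The Strain call was lost without TD 2, Strain 2 or Strain 3 (edgeR adjusted p = 0.0568, 0.0831 and 0.0525) and the No Strain call without TD 2, No Strain 1 or No Strain 3 (edgeR adjusted p = 0.0502, 0.0987 and 0.0527). For both patch groups together, the difference of -0.40 (SE 0.0856, edgeR adjusted p = 0.00719) held without any single library, at edgeR adjusted p from 0.00387 to 0.0203. Pkd1 shares 693 of its 17415 exonic bases with Tsc2 on the opposite strand. Tsc2, a brake on mTORC1 signalling at 60.8 to 84.1 CPM, was itself lower in Strain (log2 fold change -0.22, edgeR adjusted p = 0.0285) and in No Strain (-0.26, edgeR adjusted p = 0.0156), and reads in the shared bases cannot be told apart.

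The exon-free part of the Pkd1 window (chr17:24549700-24549833, plus strand) had 69.4% GC, where the median was 50% over the same length and placement. Capitals mark a GC box beginning 209 bases before the RefSeq start, whose letters occur in 14.2% of promoters there, and the other 5 motifs were not in this part. The 116 bases next to that start lie in annotated exons, so it lies downstream of the gene start given above.
Pkd1: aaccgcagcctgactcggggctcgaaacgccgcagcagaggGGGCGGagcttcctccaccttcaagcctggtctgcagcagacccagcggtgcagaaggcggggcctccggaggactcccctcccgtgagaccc

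Pkd2 (ENSMUSG00000034462, chromosome 5, 104459450 to 104505819, plus strand) passed in no comparison. TD 1 to 5 had 172, 169, 145, 183 and 155 CPM, Strain 1 to 4 had 162, 133, 131 and 179 CPM, and No Strain 1 to 3 had 126, 191 and 200.5 CPM. The No Strain wounds held both the lowest and the highest value of the 12. The differences from TD were -0.12 (SE 0.141, edgeR adjusted p = 0.603) for Strain and 0.07 (SE 0.153, edgeR adjusted p = 0.793) for No Strain. Whether the change of Pkd1 differs from that of Pkd2 was not tested. Pkd2 was lowest within its group in TD 3, Strain 3 and No Strain 1, the same libraries in which Piezo2 was lowest.

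Skeletal muscle and fat markers were lower in the same contrasts as Kcnk2, Pkd1 and the Tmem63 genes. The 14 muscle markers, all detected in every library, summed to 7272 to 17920 CPM in TD (median 12520), 3431 to 6515 in Strain (median 4294) and 5014 to 10810 in No Strain (median 7225). Of these, 10 of 14 fell in Strain and 3 of 14 in No Strain against TD by edgeR, and 11 and 6 by DESeq2. The 8 fat cell markers summed to 1113 to 2545 CPM in TD, 771 to 1172 in Strain and 553 to 849 in No Strain, and 5 and 7 of 8 fell by edgeR (6 and 7 by DESeq2). Schwann cell markers, with the sums given above, fell for 1 of 8 in Strain, 3 of 8 in No Strain and 4 of 8 in both patch groups by edgeR. Melanocyte markers summed to 7.55 to 13.52 CPM in TD, 21.2 to 75.9 in Strain and 8.69 to 35.8 in No Strain. Of these, 5 of 5 rose in Strain and 0 of 5 in No Strain against TD, by edgeR. Fibroblast markers, at 42620 to 74060 CPM, had no call in edgeR in these 4 contrasts, with 0, 1, 1 and 2 of 8 at an unadjusted p under 0.05 in the order above, and DESeq2 called 0 in each. In Strain against No Strain no marker of any list passed in edgeR. Unadjusted p was under 0.05 there for 7 of 14 muscle, 5 of 8 fat, 4 of 8 neutrophil and 4 of 5 melanocyte markers, beside 5.61% of all genes. Their median log2 fold changes were -0.714, 1.108, -0.835 and 1.398. Endothelial and Schwann markers had 0 of 8 each. Merkel cell markers had 2 of 5 tested, with a median log2 fold change of -0.38, and DESeq2 called 1 of them lower in Strain than in No Strain.

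With the muscle list as a covariate, 0 of the 10 channel genes passed in any comparison in edgeR, and the standard errors were larger. For both patch groups against TD, the difference was then -0.55 (SE 0.145, edgeR adjusted p = 0.121) for Pkd1, in place of -0.40. For Kcnk2 it was -0.94 (SE 0.453, edgeR adjusted p = 0.32), in place of -0.98. Tmem63a stood at -0.23 (SE 0.0810, edgeR adjusted p = 0.189), Tmem63b at -0.23 (SE 0.111, edgeR adjusted p = 0.31) and Trpv2 at 0.61 (SE 0.259, edgeR adjusted p = 0.266). Without the covariate these were -0.18, -0.20 and 0.46. In the muscle sum every Strain wound lay below every TD wound, and No Strain reached the TD range only through No Strain 3. The covariate therefore cannot tell muscle content and the patch apart. The part of fat, nerve and pigment cells in these differences was not tested.

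**Figure D4:**
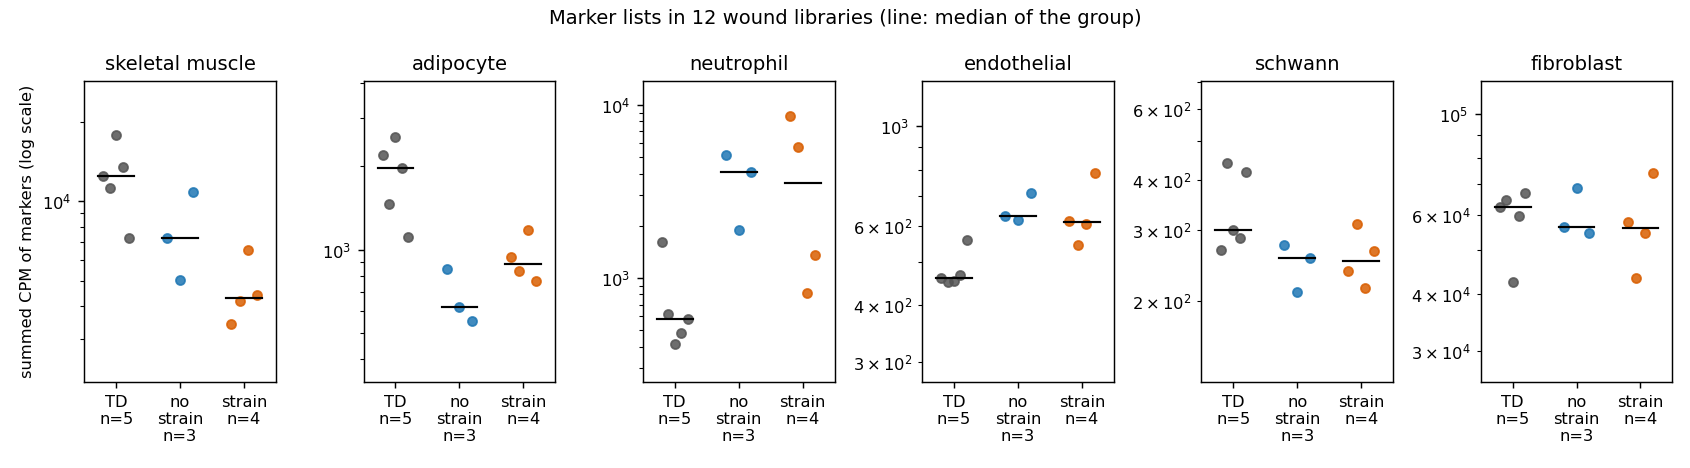
Summed CPM (y axis, log scale) of 6 marker lists in TD, No Strain and Strain wounds (x axis), 1 point per library with the group median as a line. Muscle and fat markers are lower and neutrophil markers mostly higher in the patch groups, and fibroblast markers overlap.

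Genes that work beside these channels were read from 3 lists: other channels linked to force or volume, proteins that bind or tune the channels, and genes that handle or read out calcium. Of 32 other channels, 26 were tested; in Strain against TD 3 rose and 3 fell, and in No Strain 4 rose and 2 fell. Strain against No Strain had 0 called in all 3 lists by edgeR, with 1, 2 and 1 genes at an unadjusted p under 0.05, and 0 called by DESeq2. Panx1, the pannexin channel that releases ATP, was at 29.2 to 33.4 CPM in TD, 39.2 to 44.3 in Strain and 47.9 to 53.4 in No Strain, with no overlap between any groups. It rose by 0.41 (SE 0.0596, edgeR adjusted p = 0.00498) in Strain and by 0.69 (SE 0.0640, edgeR adjusted p = 0.000382) in No Strain. Strain against No Strain gave -0.28 (SE 0.0675, edgeR adjusted p = 0.872) and did not pass.

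The volume-regulated anion channel is built from LRRC8 subunits. Lrrc8d rose in Strain (0.66, SE 0.122, edgeR adjusted p = 0.00997) and in No Strain (0.90, SE 0.131, edgeR adjusted p = 0.00272), from 21.6 to 31.8 CPM in TD to 38.0 to 49.0 and 45.95 to 58.9 CPM. Lrrc8c rose too, by 0.65 (SE 0.138, edgeR adjusted p = 0.0157) and 0.55 (SE 0.149, edgeR adjusted p = 0.027), and no library of TD reached a patch library for either gene. Lrrc8a, the obligatory subunit, passed in No Strain alone (0.30, SE 0.0953, edgeR adjusted p = 0.0493), with 0.22 (SE 0.0881, edgeR adjusted p = 0.118) in Strain.

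Among the channels that fell were Trpm4, a calcium-activated cation channel, at -0.25 (SE 0.0699, edgeR adjusted p = 0.0393) in Strain and -0.33 (SE 0.0766, edgeR adjusted p = 0.0154) in No Strain. Trpm3, a heat- and steroid-gated channel, fell by 1.61 (SE 0.264, edgeR adjusted p = 0.00699) and by 1.08 (SE 0.274, edgeR adjusted p = 0.0218) on the log2 scale, but rested on only 3 to 23 counts per library. The inward rectifier Kcnj2 passed in Strain (-0.54, SE 0.138, edgeR adjusted p = 0.0289) and not in No Strain (-0.39, SE 0.151, edgeR adjusted p = 0.091). The neuronal and hair cell channels Trpa1, Tmc1 and Tmc2 did not pass the filter on low counts.

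Of 20 partner genes, 19 were tested, and 2 rose in Strain and 3 in No Strain with 0 falling in either. Pecam1, part of the endothelial shear sensing complex, was 124 to 159 CPM in TD, 183 to 256 in Strain and 194 to 228 in No Strain. Its rise of 0.60 (SE 0.107, edgeR adjusted p = 0.0089) and 0.61 (SE 0.115, edgeR adjusted p = 0.00668) left no overlap with TD. Pecam1 is also 1 of the 8 endothelial markers, whose sum was 451 to 560 CPM in TD, 544 to 787 in Strain and 620.2 to 710.2 in No Strain. The part of endothelial cell number was not tested. Rgs4, a regulator of G protein signalling, rose by 0.51 (SE 0.143, edgeR adjusted p = 0.0388) and 0.59 (SE 0.154, edgeR adjusted p = 0.0237). Mdfic, an auxiliary subunit of Piezo channels, passed in No Strain (0.41, SE 0.0950, edgeR adjusted p = 0.0157) and had 0.18 (SE 0.0881, edgeR adjusted p = 0.195) in Strain.

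All 26 calcium genes were tested, of which 3 fell and 0 rose in Strain, and 3 fell and 1 rose in No Strain. Stim1, the sensor of calcium stores, fell from 103 to 139 CPM in TD to 72.9 to 87.1 in Strain and 80.6 to 82.0 in No Strain. The difference was -0.60 (SE 0.0881, edgeR adjusted p = 0.0051) and -0.51 (SE 0.0965, edgeR adjusted p = 0.00629), with TD above every patch wound. Camk2g, a calcium-dependent kinase, was at -0.31 (SE 0.0557, edgeR adjusted p = 0.009) and -0.27 (SE 0.0608, edgeR adjusted p = 0.0144), and Rcan2, a calcineurin inhibitor, at -0.61 (SE 0.157, edgeR adjusted p = 0.0288) and -0.62 (SE 0.172, edgeR adjusted p = 0.0309).

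The share of each list that passed was 23.1% of other channels in both single patch contrasts, 10.5% and 15.8% of partners, and 11.5% and 15.4% of calcium genes, beside 12.6% and 17.8% of all genes. With the muscle list as a covariate, 4 of the 23 calls made by the naming rule in these lists remained in edgeR, all in No Strain against TD: Panx1, Lrrc8d, Trpm4 and Rcan2. The title letter ended 8 of the 23. Leaving out 1 library ended 1 to 7 of them, with 7 lost without TD 3, 6 without No Strain 3 and 5 without No Strain 1. Panx1, Lrrc8d, Pecam1 and Stim1 passed in both single patch contrasts without any single library, and so did Lrrc8c, Trpm3 and Camk2g in Strain against TD. Trpm4, Rgs4, Kcnj2 and Rcan2 in Strain, and Lrrc8c, Trpm3, Rgs4 and Rcan2 in No Strain, each lost their call in 2 or more omissions, with edgeR adjusted p up to 0.102. Trpm4, Mdfic and Camk2g in No Strain each lost it in 1, without No Strain 3 for Trpm4 (edgeR adjusted p = 0.0551) and Mdfic (0.0771) and without No Strain 1 for Camk2g (0.059).

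**Figure D5:**
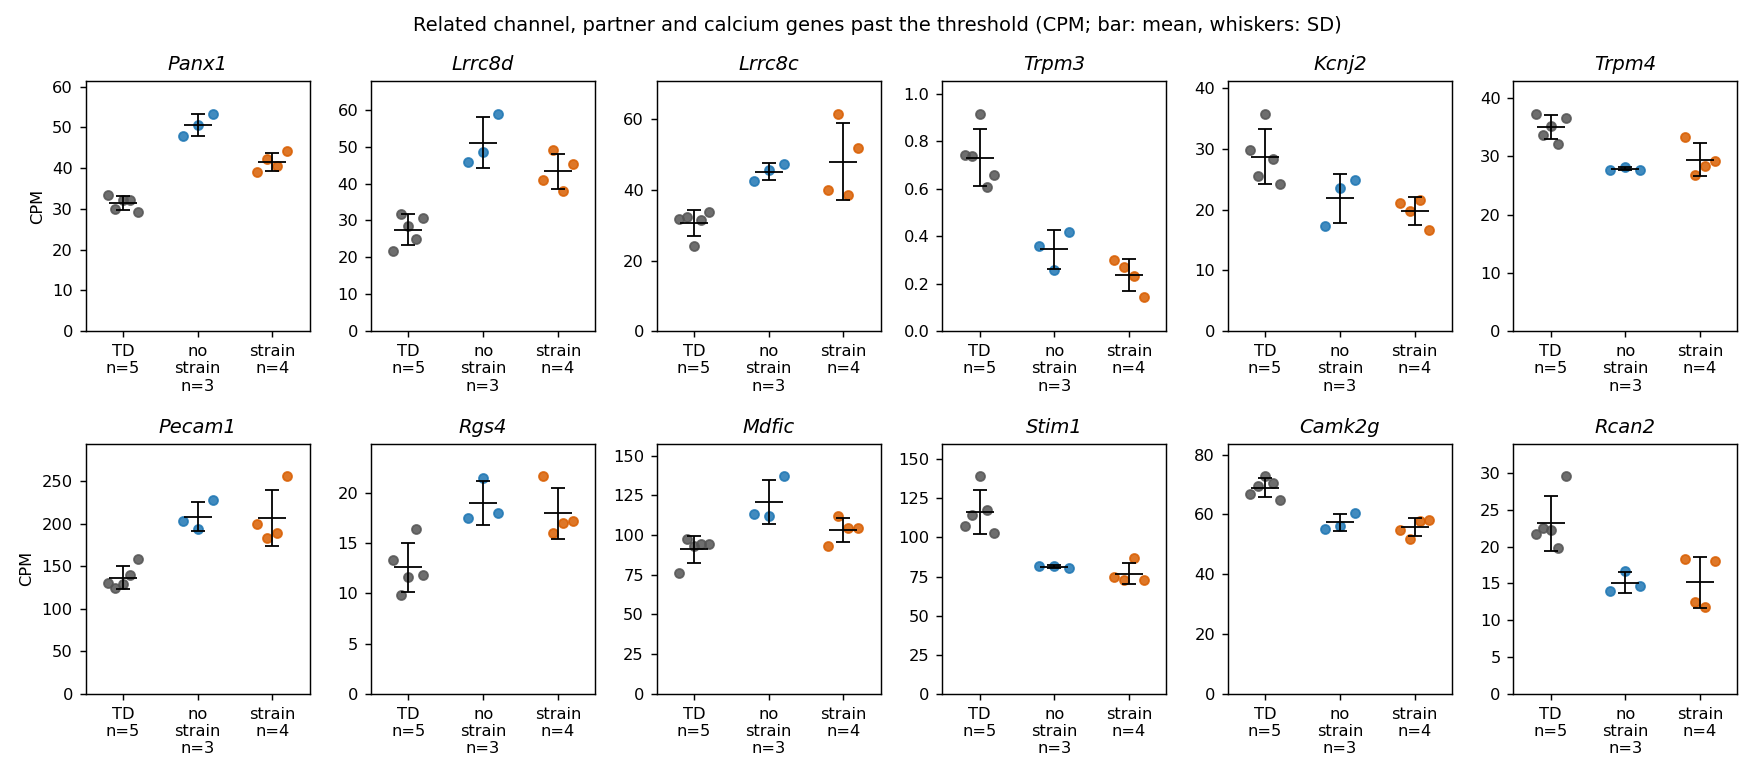
CPM (y axis, from 0) of 12 named genes from the lists of other channels, partners and calcium genes in TD, No Strain and Strain wounds (x axis), 1 point per library with the group mean and SD. Panx1 separates all 3 groups, and Stim1, Lrrc8c and Lrrc8d separate TD from both patch groups.

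Likeness over the 12 libraries was measured as the root-mean-square difference of mean-centred log2 CPM, over 12418 genes with a mean of at least 5 CPM. Nearest to Kcnk2 were Slc24a3, a potassium-dependent sodium and calcium exchanger (0.237), and Fhod3, a formin of striated muscle (0.245), beside a median of 0.716 over all candidates. Nearest to Pkd1 were Dag1, which encodes dystroglycan (0.0811), and Sptbn1, a spectrin (0.0892), against a median of 0.303. Nearest to Trpv2 were Tcirg1, a subunit of the lysosomal proton pump (0.0829), and Ctsz, a cathepsin (0.0838), against 0.381.

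Tmem63a was nearest to Mettl17 (0.0526) and Mthfsd (0.0529), against 0.207, and Tmem63b to Sh3bp5l (0.0543) and Sh2b1 (0.0684), against 0.221. Piezo1 was nearest to Ptpra, a receptor tyrosine phosphatase (0.0688), and Dusp3, a dual-specificity phosphatase (0.0692), against 0.239. Piezo2 was nearest to Eml1, a microtubule-binding protein (0.106), and Mxra8, a matrix remodelling-associated membrane protein (0.115), against 0.361. The nearest genes lie below the median by selection, so the medians only give the scale. These are descriptions over libraries that share group differences and tissue composition.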

How the data were processed

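Poly(A) RNA of 12 wounds was sequenced as 1 library each, per the labels' protocols. The deposited values are raw counts per Ensembl gene, 1 table per library, per the file headers. The submitters' processing notes list bcl2fastq 2.17, FastQC, cutadapt, STAR, featureCounts, DESeq2 and the build GRCm38; settings, strand mode and annotation release are not given in the sources used here. Symbols came from GENCODE M21 and matched 54165 of 54232 identifiers.

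In R 4.3.3, edgeR 4.0.16 filtered genes (filterByExpr, minimum count 10, minimum total 15), scaled by TMM and fitted all 12 libraries in 1 robust quasi-likelihood model. Log2 CPM adds a prior count of 2; SEs come from the fold change and its F statistic. Groups follow the group label. The fit was tested on simulated data. A floor of 3 counts per library, for counting error only, is at most 0.147 CPM. Over 19 replicate pairs, chi-square per degree of freedom was 8.69 to 67.1, so no library was a duplicate. TD 2 and TD 5 were the most alike, at 8.69, and the next lowest value was 22.2. The labels do not say whether TD 2 and TD 5 came from 1 mouse.

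The channel genes, lists and alternatives were chosen with earlier results of these data known. Genes were named as follows: the 10 channels; per list and single contrast, the genes of smallest p past the threshold, at most 3 in each direction; and 2 nearest genes for each called channel and for Piezo1 and Piezo2. Lrrc8a, Trpa1, Tmc1, Tmc2 and overlapping genes were added after their values were seen, and so were the motifs. Alternatives were DESeq2 size factors, library totals, DESeq2 1.42.0, no filter, only the groups compared, title letter or muscle list (mean log2 CPM) as covariate, and omission of each library. A result that the naming rule would give is not reported here.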

Additional observations from a re-analysis of the deposited data

Results flagged for a closer look

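Within groups of 4 or 5 libraries, 20 sets of log2 CPM values were screened for a library far from the rest; chance flags about 1 in 20, so 1 was expected and 2 were found. Piezo1 in Strain 4 was 7.23, with the next library at 7.05, a gap of 0.904 of the group's range, while the other 3 Strain wounds lay close together. Trpv2 in TD 1 was 4.47, with the next library at 5.08, a gap of 0.824 of the range. Without TD 1, Trpv2 in both patch groups against TD was 0.35 (edgeR adjusted p = 0.0763) in place of 0.46, and without Strain 4 no Piezo1 comparison passed in edgeR.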

How the results depend on the processing

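Counts of channel genes past the threshold depended on the analysis. From 2 in Strain against TD, they went to 1 with no filter, 1 with the title letter as covariate, 0 with the muscle covariate, and 0 to 2 over omissions of 1 library (0 without Strain 2). From 2 in No Strain against TD, they went to 5 in DESeq2, 1 with no filter, 0 with the muscle covariate, and 0 to 3 over omissions (0 without No Strain 1 or 3). From 5 for both patch groups, they went to 3 with no filter, 3 with the letter, 0 with the muscle covariate, and 3 to 5 over omissions. Strain against No Strain had 0 throughout. Over all genes, DESeq2 called 33 in Strain against No Strain. Strain against TD called 2349, then 1527 with no filter, 798 with the letter, 1 with the muscle covariate and 882 to 2458 over omissions. No Strain against TD called 3305, then 2145, 951 and 1505 to 3415 with the letter, the muscle covariate and omissions. Both patch groups called 4552, then 2589, 88 and 3176 to 4570. Of the 26 calcium genes, DESeq2 called 5 in Strain and 7 in No Strain, where edgeR called 3 and 4. Library totals alone lowered the share of higher calls from 52.7% to 38.1% in No Strain and from 50.5% to 40.1% in both patch groups.

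Differences that changed sign had not passed. With the letter as covariate, Piezo2 was -0.14 in Strain, -0.004 in No Strain and -0.072 in both patch groups, Pkd2 -0.098 in No Strain and Trpm7 -0.023 in both. With the muscle covariate, Piezo2 was -0.35, -0.015 and -0.18, Trpm7 -0.019 in Strain and -0.055 in both, and Pkd2 -0.017 in No Strain. In Strain against No Strain that covariate gave Pkd1 -0.077. Library totals gave Trpm7 -0.016 in both. Over omissions, Strain against No Strain ranged from -0.14 to 0.017 for Piezo1, -0.29 to 0.043 for Piezo2, -0.21 to 0.035 for Trpv4, -0.030 to 0.082 for Tmem63b and -0.083 to 0.071 for Pkd1. Against TD, Piezo2 ranged from -0.078 to 0.25 in Strain, Trpv4 from -0.23 to 0.016, Trpm7 from -0.07 to 0.016 and Pkd2 from -0.052 to 0.25 in No Strain, and Pkd2 from -0.088 to 0.061 in both. The causes were not tested.

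No paired analysis was possible because the title numbers do not repeat between groups. Fitting only the groups compared gives the same fit for both patch groups. With 3 to 5 libraries per group, intervals for Kcnk2 and Piezo2 are wide, and at 42 to 254 counts Kcnk2 has the least depth of the 10.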
